A study of Rattus norvegicus with 9 samples.

Results

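Deacclimation, the loss of an adjustment to heat once an animal returns to a temperate room, was examined in rat left ventricle by setting deacclimated rats against rats taken at the end of the acclimation that came before it. The comparison uses 2 of the 9 samples of the series, chosen by their labels, and all 87 deposited array rows. The deacclimated rats had been kept for 1 mo at 34 °C and then for 1 mo at 24 °C, and the 1 mo acclimated rats were taken after the month at 34 °C. Untreated rats served as the control, and neither of the groups compared had been given the acute heat stress used elsewhere in the series (41 °C for 2 h with 1 h of recovery at 24 °C). Of the other groups, the reacclimated rats had the same history as the deacclimated ones and then a further 2 d at 34 °C, and the 2 d acclimated rats had only those 2 d. Reacclimated, 1 mo acclimated, 2 d acclimated and untreated rats were each also sampled after heat stress. Strain, sex and age are not given in the labels, and because the deacclimated protocol ran 1 mo longer, time since the start and deacclimation cannot be told apart.

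Heat acclimation of the rat heart is known for slower and more economical contraction, a larger reserve of heat shock proteins (chaperones that refold damaged protein) and greater resistance to ischaemia. These physiological traits are known to fade when the animal goes back to a temperate climate. Reacclimation is known to be faster than the first acclimation, which is why the deacclimated heart is of interest as a state of its own and not only as a return to the start.

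RNA from left ventricles was pooled, with 3 pools per group and 6 animals stated, and each group was deposited as 1 value per row, so all differences below are sizes with no p-value and no replicate error. Values are log2 ratios to the control, where 0 is the control level and a difference of 1.00 is 2-fold. Neither the files nor the reference table links any of the 87 row names to a gene. Rows therefore keep their array names, no function is given to any of them, and the tissue could not be checked against marker genes. In ventricle RNA, fewer cells of a type and less RNA per cell cannot be told apart. A second deposited table holds intensities for the same rows, with medians of 4142 in deacclimated and 2775 in 1 mo acclimated hearts. The number of arrays limits the precision.

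By the listed ratios, deacclimated hearts lay further from the control than the 1 mo acclimated hearts did. Over the 87 rows the root mean square log2 ratio was 0.97 in deacclimated and 0.71 in 1 mo acclimated hearts, and the median absolute log2 ratio was 0.73 in deacclimated and 0.48 in 1 mo acclimated hearts. In deacclimated hearts 23 rows (26.4%) were at least 2-fold from the control, 18 above it (20.7%) and 5 below (5.75%), against 12 rows (13.8%), 10 above (11.5%) and 2 below (2.30%), in 1 mo acclimated hearts. Ratios went from -1.91 to 2.82 in deacclimated and from -1.32 to 2.36 in 1 mo acclimated hearts. By scaled intensity (described below with the check of each row) the root mean square was 1.51 in deacclimated and 1.52 in 1 mo acclimated hearts over 82 rows, where the listed ratios gave 0.97 in deacclimated and 0.66 in 1 mo acclimated hearts. The count of rows at least 2-fold from the control kept the order on that scale, at 45 in deacclimated and 36 in 1 mo acclimated hearts. Both distances share the control, and no test of their difference was possible with 1 value per group.

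Most rows differed little between the groups. The median difference, deacclimated minus 1 mo acclimated, was 0.07, with quartiles of -0.33 and 0.48, and 49 of 87 rows lay within 0.5 of each other. The control cancels in this difference. The root mean square difference was 0.81, which ranks 6th from the smallest among the 28 pairs of treated groups, where the smallest was 0.66 (1 mo against 2 d acclimated) and the largest 1.63 (reacclimated against heat-stressed). In all 15 rows (17.2%) were at least 2-fold apart, 8 higher (9.20%) and 7 lower (8.05%) in deacclimated hearts.

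**Figure D1:**
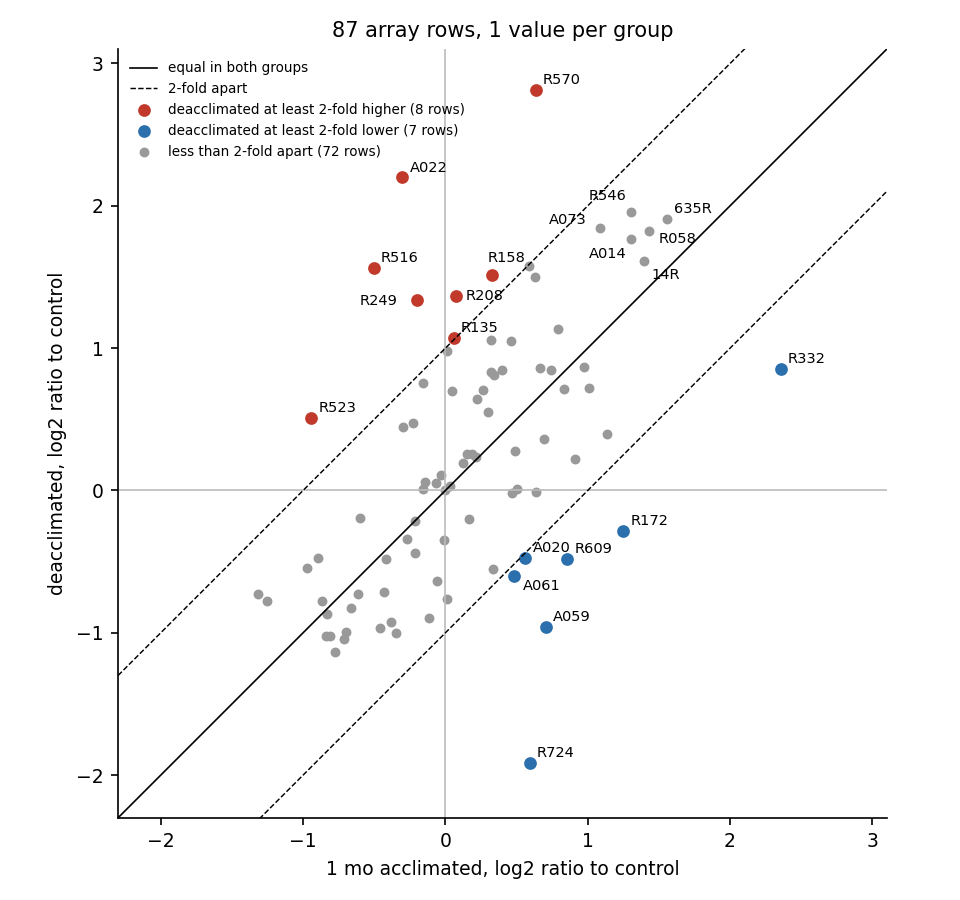
Log2 ratio to the control of each of the 87 rows in deacclimated hearts (vertical axis) and in 1 mo acclimated hearts (horizontal axis). The solid line marks equal values and the dashed lines a 2-fold difference; 8 rows lie above the upper dashed line, 7 below the lower one, and a cluster of rows including 635R, R058, R546, A014, 14R and A073 lies high in both groups.

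The higher rows were mostly ones that sat near the control after acclimation and well above it after deacclimation. Row A022 had a log2 ratio of 2.20 in deacclimated hearts, against -0.30 in 1 mo acclimated hearts, a 5.67-fold difference (2.50). Row R570 stood at 2.82 in deacclimated hearts, the highest ratio of that group, against 0.63 in 1 mo acclimated hearts (difference 2.18, or 4.54-fold). Row R516 stood at 1.56 in deacclimated hearts, against -0.50 in 1 mo acclimated hearts (difference 2.07). These 3 rows were more than 4-fold apart. With the control taken as 0, A022 and R516 were on opposite sides of it in the groups.

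Another 4 rows had values between 1.07 and 1.51 in deacclimated hearts. Row R249 was listed at 1.34 in deacclimated hearts, against -0.20 in 1 mo acclimated hearts (difference 1.54). Row R208 was listed at 1.37 in deacclimated hearts, against 0.07 in 1 mo acclimated hearts (difference 1.29). Row R158 was listed at 1.51 in deacclimated hearts, against 0.33 in 1 mo acclimated hearts (difference 1.18), and R135 at 1.07 in deacclimated hearts, against 0.06 in 1 mo acclimated hearts (difference 1.01). Row R523 alone among the 8 higher rows was within 2-fold of the control in deacclimated hearts (0.51), against -0.94 in 1 mo acclimated hearts, a difference of 1.45. Just outside the 2-fold limit lay R105 (1.57 in deacclimated and 0.59 in 1 mo acclimated hearts, difference 0.99) and A062 (0.98 in deacclimated and 0.01 in 1 mo acclimated hearts, difference 0.97). In the size of this difference, little more than the threshold separates R135 from these rows.

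With the control taken as 0, the lower rows were all above it after acclimation, and 6 of the 7 were below it after deacclimation. Row R724 had a log2 ratio of -1.91 in deacclimated hearts, the lowest of that group, against 0.59 in 1 mo acclimated hearts, a 5.67-fold difference (-2.50). Row A059 stood at -0.96 in deacclimated hearts, against 0.70 in 1 mo acclimated hearts (difference -1.66). Row R172 stood at -0.28 in deacclimated hearts, against 1.25 in 1 mo acclimated hearts (difference -1.53). Row R332 was the exception that stayed above the control, at 0.86 in deacclimated hearts, against 2.36 in 1 mo acclimated hearts, where it was the highest row (difference -1.50).

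Row R609 was listed at -0.48 in deacclimated hearts, against 0.86 in 1 mo acclimated hearts (difference -1.34). Row A061 was listed at -0.60 in deacclimated hearts, against 0.48 in 1 mo acclimated hearts (difference -1.08), and A020 at -0.47 in deacclimated hearts, against 0.56 in 1 mo acclimated hearts (difference -1.03). The nearest rows outside the limit were A057 (-0.88) and R590 (-0.79).

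The higher and lower rows differed in signal strength. Of the 7 lower rows, 6 were among the 22 rows with the lowest mean intensity over the 9 samples, the exception being R609, against 1 of the 8 higher rows (R523). Without that lowest 25% of rows 7 higher rows and 1 lower row were left. In 4 bins of about equal size by mean intensity the median absolute difference was 0.64, 0.31, 0.59 and 0.36 from the dimmest to the brightest, and 7, 0, 6 and 2 rows were at least 2-fold apart. The part of signal strength in the lower rows was not tested. In 5 of the 15 rows (A022 and R158 among the higher, R724, R609 and A061 among the lower) the listed control value was -3.32, where 0 would be the ratio of a sample to its own level; this cancels in the difference but leaves their distance from the control uncertain. The other rows with such a control value were R105 (-6.64), A042 (-0.20 in deacclimated and 0.17 in 1 mo acclimated hearts), A021 (0.06 in deacclimated and -0.07 in 1 mo acclimated hearts) and A034 (0.01 in deacclimated and -0.15 in 1 mo acclimated hearts), all less than 2-fold apart.

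Rows were next followed from the acclimated to the deacclimated state by their distance from the control, a change in distance being counted from 0.5 log2 units. There were 29 rows at least 2-fold from the control in either group. In deacclimated hearts 4 of them were nearer to the control than in 1 mo acclimated hearts, 11 were about as far and 12 were further. The remaining 2 had crossed, being on the opposite side and at least 0.5 away in both groups. Rows A022 and R249, counted as further, and R172, counted as nearer, also changed sides. They lay less than 0.5 from the control in a group and were not counted as crossed. Over all 87 rows, 6 were nearer, 24 further and 57 within 0.5. By scaled intensity 54 rows were at least 2-fold from the control in either group, of which 15 were nearer and 22 further.

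Of the 12 rows at least 2-fold from the control after 1 mo of acclimation, 4 returned towards it. These were R332 and R172, with the values above, S72R (0.39 in deacclimated and 1.14 in 1 mo acclimated hearts) and R470 (-0.73 in deacclimated and -1.32 in 1 mo acclimated hearts). Another 6 were about as far and 2 were further away. There were 6 rows at least 2-fold above the control in both groups. Among them, 635R stood at 1.91 in deacclimated and 1.56 in 1 mo acclimated hearts, R058 at 1.82 in deacclimated and 1.43 in 1 mo acclimated hearts, and 14R at 1.61 in deacclimated and 1.40 in 1 mo acclimated hearts. Row A014 stood at 1.76 in deacclimated and 1.31 in 1 mo acclimated hearts, R546 at 1.95 in deacclimated and 1.31 in 1 mo acclimated hearts, and A073 at 1.84 in deacclimated and 1.09 in 1 mo acclimated hearts. All 6 were listed higher after deacclimation than before it, by between 0.21 and 0.76. By scaled intensity 4 of the 6 had the opposite sign, with differences of -0.64 for 14R, -0.50 for R058, -0.09 for 635R and -0.01 for R546, and the other rows were higher by 0.17 (A014) and 0.19 (A073). The rows R594 (0.72 in deacclimated and 1.01 in 1 mo acclimated hearts) and R056 (-0.78 in deacclimated and -1.26 in 1 mo acclimated hearts) moved inside the 2-fold limit by less than 0.5.

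Rows picked as extreme in 1 group tend to lie nearer to 0 in any other by that choice alone, so the count was also made from the other end. The 10 rows at least 2-fold above the control after 1 mo of acclimation had a median ratio of 1.69 in deacclimated and 1.31 in 1 mo acclimated hearts, so their median was not nearer to the control after deacclimation. The 18 rows at least 2-fold above the control after deacclimation had a median of 1.57 in deacclimated and 0.61 in 1 mo acclimated hearts. Of the 23 rows at least 2-fold from the control in deacclimated hearts, 12 were further than before, 9 about as far and 2 crossed. The 12 further rows were all above the control, and besides A022, R570, R249, R208, R158, R135, R546 and A073 they were R050 (1.497 in deacclimated and 0.63 in 1 mo acclimated hearts), R105, R519 (1.05 in deacclimated and 0.46 in 1 mo acclimated hearts) and A024 (1.06 in deacclimated and 0.32 in 1 mo acclimated hearts). By scaled intensity the difference between the groups had the opposite sign in some of these 12 rows. They were R519 (-0.94), A024 (-0.36), R158 (-0.31), R050 (-0.06) and R546 (-0.01). Row R135 was at 0 on that scale, and the rest of the 12 were higher. The crossed rows were R516, upward, and R724, downward, the latter only with the control taken as 0.

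Below the control, 4 of the 5 rows at least 2-fold from it after deacclimation were about as far from it before. These 5 rows had a median of -1.04 in deacclimated and -0.78 in 1 mo acclimated hearts. Apart from R724 they were A018 (-1.14 in deacclimated and -0.78 in 1 mo acclimated hearts), A039 (-1.04 in deacclimated and -0.71 in 1 mo acclimated hearts), R011 (-1.02 in deacclimated and -0.81 in 1 mo acclimated hearts) and R637 (-1.02 in deacclimated and -0.84 in 1 mo acclimated hearts). By scaled intensity the difference between the groups had the opposite sign in A018 (0.74), A039 (0.80) and R011 (1.38). It had the same sign in R637 (-0.38). Rows A018, A039 and R011 were among the 25% of rows with the lowest mean intensity. The remaining row about as far from the control in both groups was 755R (1.13 in deacclimated and 0.79 in 1 mo acclimated hearts). Its scaled intensity difference was larger, at 2.39.

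**Figure D2:**
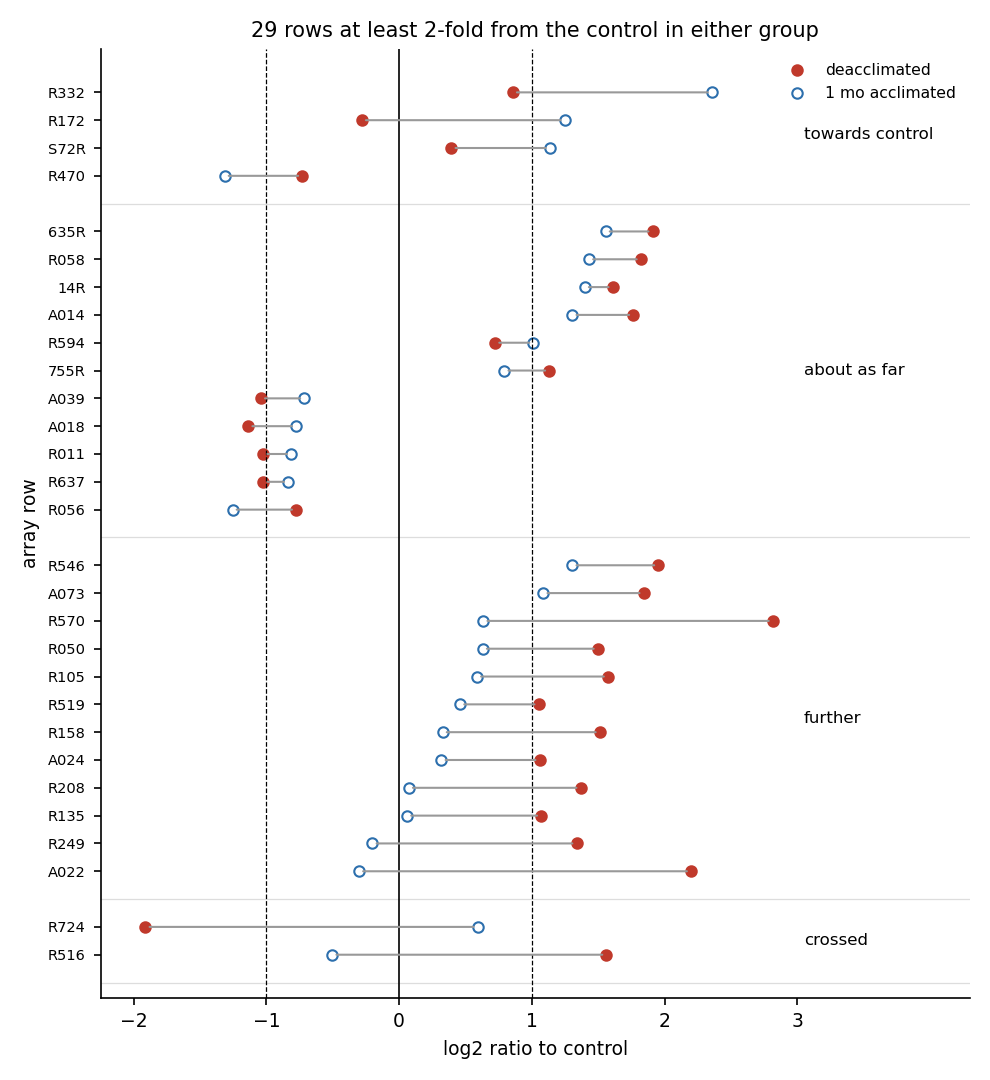
Log2 ratio to the control (horizontal axis) of the 29 rows at least 2-fold from the control in either group, with filled points for deacclimated and open points for 1 mo acclimated hearts and dashed lines at 2-fold. From the top, 4 rows were nearer to the control after deacclimation, 11 about as far and 12 further, all 12 upward. The last 2 rows were on the opposite side and at least 0.5 away from the control in both groups.

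Each row was then checked in the intensity table, on a log2 scale after centring each sample on the median of the 59 rows that were above 0 throughout. Of the 8 higher rows, all had a higher intensity as deposited in deacclimated hearts. After scaling, 5 of the 8 were also at least 2-fold higher, against 15 of 82 rows in all (18.3%). As deposited, the deacclimated sample was brighter as a whole, with a median intensity of 4142 against 2775 in 1 mo acclimated hearts. The median unscaled log2 difference over 82 rows was 0.32, so a higher deposited intensity was not particular to the 8 rows. Before scaling, 27 of 82 rows were at least 2-fold higher in deacclimated hearts and 4 lower. Row R523 had an intensity of 3401 in deacclimated and 521.0 in 1 mo acclimated hearts (scaled difference 2.27), R516 had 11298 in deacclimated and 1931 in 1 mo acclimated hearts (2.11), and A022 had 11763 in deacclimated and 2492 in 1 mo acclimated hearts (1.80). Row R249 had 12401 in deacclimated and 3393 in 1 mo acclimated hearts (1.43), and R208 had 6805 in deacclimated and 2115 in 1 mo acclimated hearts (1.25). Row R570 was higher by 0.66 after scaling, R135 by 0, being itself the median row of both samples, and R158 had the opposite sign (-0.31).

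The lower rows fared differently. None of the 7 was at least 2-fold lower by scaled intensity. In 4 rows the intensity was below 0 in deacclimated hearts and there was hence no scaled value, namely R724 (-525.5 in deacclimated and 2013 in 1 mo acclimated hearts), A059 (-677.5 in deacclimated and 1199 in 1 mo acclimated hearts), R172 (-130.7 in deacclimated and 1508 in 1 mo acclimated hearts) and R332 (-44.4 in deacclimated and 905.0 in 1 mo acclimated hearts). For these the direction of the intensities was the same as that of the ratios, and the size of the difference is uncertain. The other 3 rows had the opposite sign, at 0.32 for R609 (intensity 6902 in deacclimated and 4073 in 1 mo acclimated hearts), 0.58 for A061 and 1.32 for A020.

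**Figure D3:**
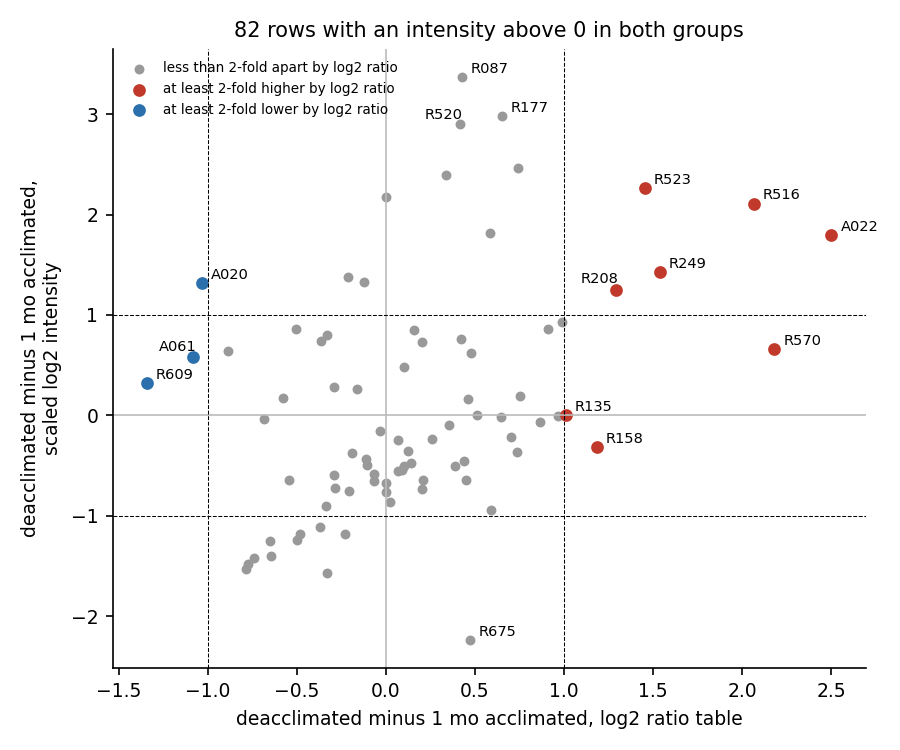
Difference between deacclimated and 1 mo acclimated hearts by scaled log2 intensity (vertical axis) and by log2 ratio (horizontal axis) for the 82 rows with an intensity above 0 in both groups, with dashed lines at 2-fold. Here 5 of the 8 higher rows lie in the upper right corner, and the 3 lower rows with a value (R609, A061 and A020) lie above 0 on the intensity axis.

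Over the 82 rows with both values, the tables gave the same sign in 45, and the correlation across rows was r = 0.407 (Spearman's rho 0.414), a description over rows that share both samples. By scaled intensity 15 rows were higher (18.3%) and 11 lower (13.4%), of which 5 and 0 were also at least 2-fold apart the same way by log2 ratio. The largest differences by intensity were in rows that differed little by log2 ratio, named here after their values were seen. Row R087 had an intensity of 9679 in deacclimated and 692.6 in 1 mo acclimated hearts (scaled difference 3.37, log2 ratio difference 0.43), and R177 had 6559 in deacclimated and 611.7 in 1 mo acclimated hearts (2.98, with 0.65 by log2 ratio). In the opposite direction, R675 had 3564 in deacclimated and 12366 in 1 mo acclimated hearts (-2.23, with 0.47 by log2 ratio).

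The deacclimated intensity of R675 was not specific to that row. The same value, 3564.3, was listed for R472, R675, R519 and R637, which are the first 4 rows of the log2 table, while no intensity was listed more than once in 1 mo acclimated hearts. The log2 ratios of these rows in deacclimated hearts differed, at 0.87 for R472, 0.81 for R675, 1.05 for R519 and -1.02 for R637. These rows are among the 82. Without them, with the scaling kept, the tables gave the same sign in 43 of 78 rows, the correlation was r = 0.436 (rho 0.455), and 15 rows were higher and 10 lower by scaled intensity. Across rows, the listed ratios of deacclimated hearts correlated at r = 0.466 with the intensity ratios to the control of the same group (82 rows). The correlation was higher with the reacclimated (0.497, 81 rows) and the reacclimated, heat-stressed (0.556, 87 rows) intensity ratios. For 1 mo acclimated hearts the highest of the 8 correlations was with the group's own intensities (0.521, 87 rows). These correlations share the control and cover unequal sets of rows, and their order was not tested.

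The 15 rows were finally read in groups that the comparison did not use. Reacclimated and 2 d acclimated rats had the same last 2 d at 34 °C and differed in the earlier acclimation and deacclimation, and the stressed pair set reacclimated, heat-stressed rats against 1 mo acclimated, heat-stressed rats. In each pair the first group had a month of deacclimation behind it and the second had none, and the control cancels. All 8 higher rows were also higher in reacclimated than in 2 d acclimated hearts, where 59.8% of all rows were, and 4 of them by at least 2-fold, against 18.4% of all rows. In the stressed pair 7 of the 8 were higher, where 60.9% of all rows were, and 5 by at least 2-fold, again against 18.4%. The median over the 8 rows was 1.49 for reacclimated minus 2 d acclimated hearts (0.24 over all rows) and 1.36 for the stressed pair (0.26 over all rows).

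Row R570 held a level apart in every group with a deacclimated history. Its ratio was 2.82 in deacclimated, 2.36 in reacclimated and 2.42 in reacclimated, heat-stressed hearts, against 0.63 in 1 mo acclimated, 0.32 in 2 d acclimated, 0.39 in 1 mo acclimated, heat-stressed, 0.40 in 2 d acclimated, heat-stressed and 0.39 in heat-stressed hearts. Row A022 stood at 2.20 in deacclimated, 2.20 in reacclimated and 2.16 in reacclimated, heat-stressed hearts, against -0.30 in 1 mo acclimated and -0.55 in 2 d acclimated hearts. After heat stress, though, A022 was also high without deacclimation, at 1.71 in 1 mo acclimated, heat-stressed hearts. Row R208 stood at 1.37 in deacclimated, 2.33 in reacclimated and 1.75 in reacclimated, heat-stressed hearts, against between -0.55 and 0.33 in the other 5 treated groups.

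In 7 of the 8 higher rows the ranges did not overlap between the 3 groups with a deacclimated history, which were higher, and the 5 treated groups without one. This held for 18 of all 87 rows (20.7%). Row R516 was between 1.56 and 1.78 in the 3 groups and between -0.50 and 1.33 in the 5. Row R249 was between 1.34 and 1.47 in the 3 groups and between -0.43 and 0.60 in the 5. The narrowest of these gaps was for R516, and in R249 the 3 groups lay close together. Row R158 was between 1.08 and 1.59 in the 3 groups and between -0.33 and 0.62 in the 5. Row R135 was between 0.59 and 1.07 in the 3 groups and between -0.96 and 0.08 in the 5. Deacclimated and 1 mo acclimated hearts, which chose the rows, are among these groups. Without both, the same 7 of 8 rows did not overlap, against 25 of all 87 rows (28.7%). Row R523 departed from the rest, with 0.51 in deacclimated, -1.05 in reacclimated and -0.53 in reacclimated, heat-stressed hearts.

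**Figure D4:**
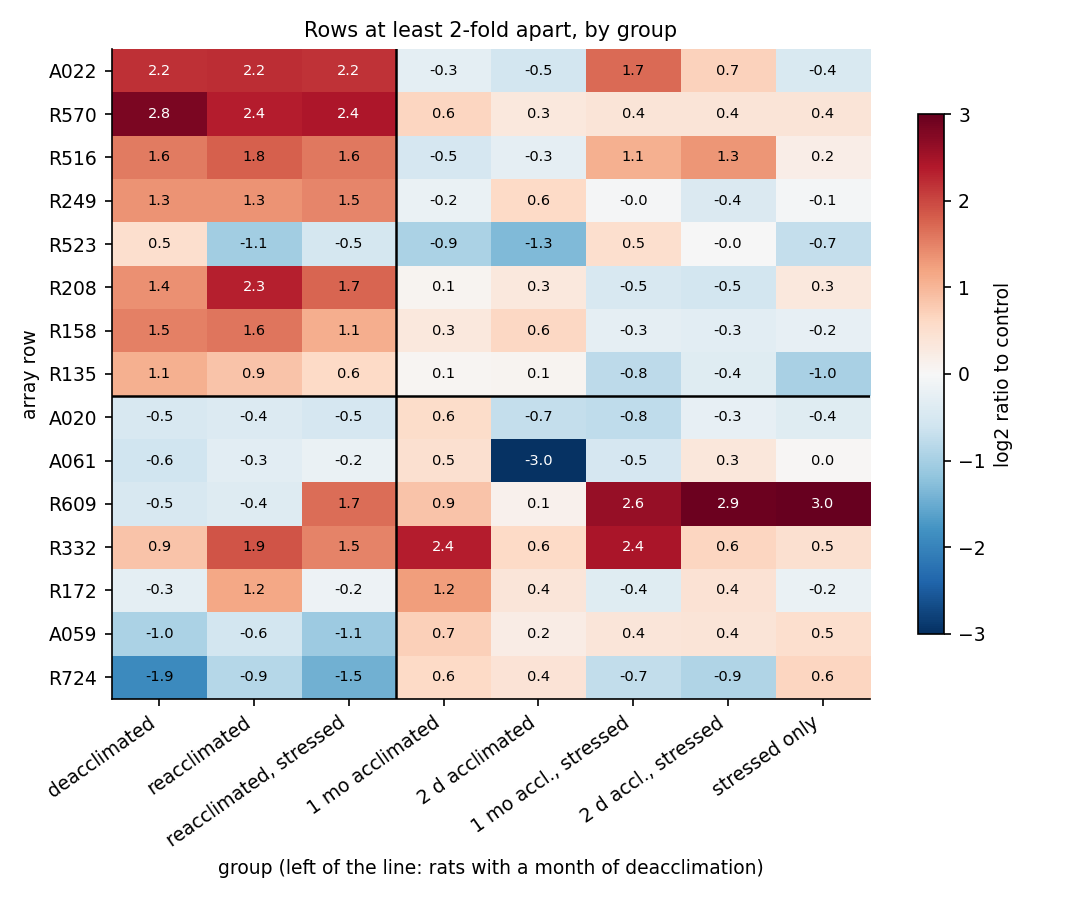
Log2 ratio to the control (colour and printed value) of the 15 rows at least 2-fold apart, in the 8 treated groups; columns left of the vertical line are groups with a month of deacclimation, and rows above the horizontal line are the 8 higher rows. Of these 8, 7 are red in all 3 columns on the left, R523 being the exception. Of the 7 lower rows R724, A059, A061 and A020 are below 0 in all 3. Among those named lower rows A059 alone is above 0 in every column on the right, and the rest are below 0 in some of them.

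The lower rows were mixed in these groups. In reacclimated minus 2 d acclimated hearts 3 of the 7 were below 0, where 40.2% of all rows were, and 1 was lower by at least 2-fold (6.90% of all rows). In the stressed pair 4 of the 7 were below 0, where 39.1% of all rows were, and 1 was lower by at least 2-fold (4.60% of all rows). After each group was centred on its median, 6 of the 7 were below 0 in the stressed pair, where 52.9% of all rows were, and 3 in the other pair. In 1 of the 7 rows, A059, the 3 groups with a deacclimated history lay below the 5 treated groups without one and did not overlap with them (-1.09 to -0.56 against 0.23 to 0.70), as in 3 of all 87 rows (3.45%). Without deacclimated and 1 mo acclimated hearts this held for A059 again and for 7 of all 87 rows. The intensity of A059 was -677.5 in deacclimated and -645.3 in reacclimated hearts, the latter a value listed for 3 rows. In reacclimated, heat-stressed hearts its intensity was 166, a value also listed for A061. Row R724 was below 0 in all 3 groups with a deacclimated history, at -1.91 in deacclimated, -0.86 in reacclimated and -1.45 in reacclimated, heat-stressed hearts. It was also below 0 in 2 d acclimated, heat-stressed (-0.90) and 1 mo acclimated, heat-stressed hearts (-0.73), and its listed control value was -3.32. Row A059 stood at -0.96 in deacclimated, -0.56 in reacclimated and -1.09 in reacclimated, heat-stressed hearts, and was above 0 in the 5 treated groups without deacclimation. Rows A061 (between -0.60 and -0.19) and A020 (between -0.51 and -0.42) were also below 0 in the 3 groups with a deacclimated history. This was not particular to those groups. Row A061 was -2.97 in 2 d acclimated and -0.50 in 1 mo acclimated, heat-stressed hearts, and above 0 in the other groups without deacclimation. Row A020 was -0.72 in 2 d acclimated and -0.76 in 1 mo acclimated, heat-stressed hearts. It was also below 0 in heat-stressed (-0.36) and 2 d acclimated, heat-stressed hearts (-0.26), but not in 1 mo acclimated hearts. Row R172 was high in reacclimated hearts (1.15) as in 1 mo acclimated hearts (1.25), and R332 was 1.90 in reacclimated hearts. Row R609 was high in all 4 heat-stressed groups, between 1.68 and 2.99, and between -0.48 and 0.86 in the 4 treated groups without stress.

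**Figure D5:**
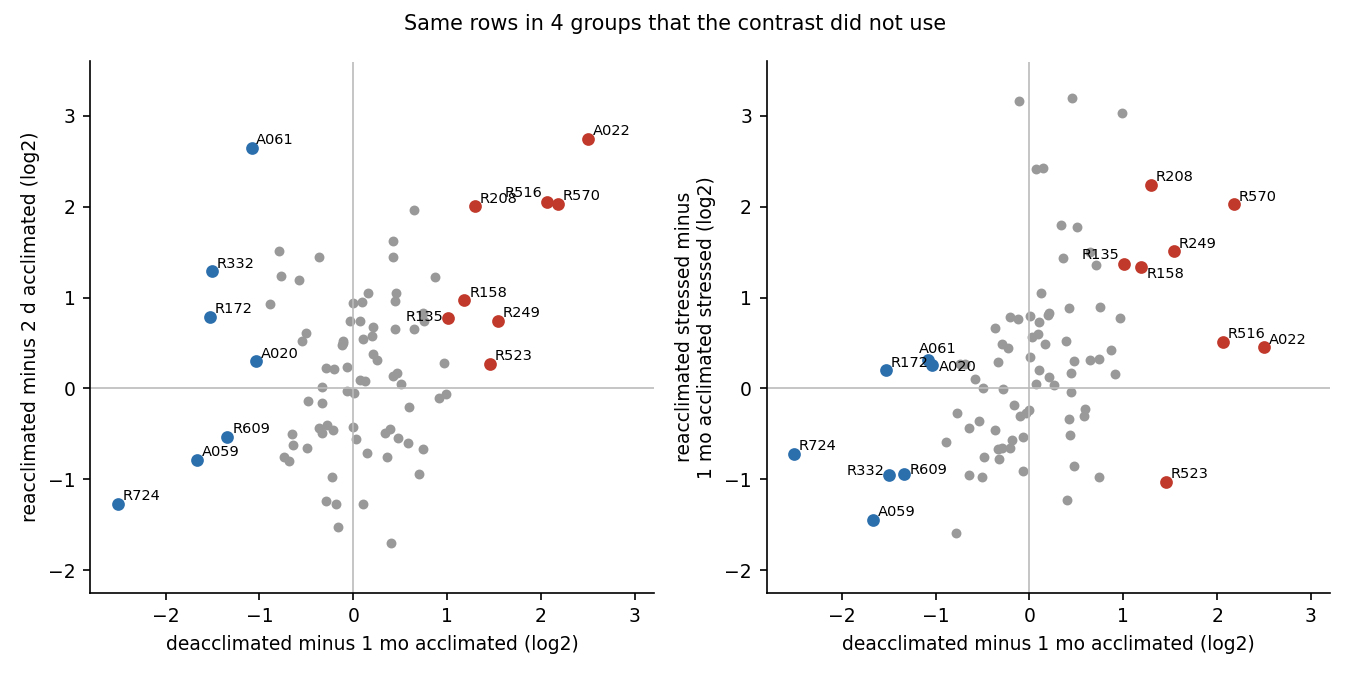
Reacclimated minus 2 d acclimated hearts (left panel, vertical axis) and reacclimated, heat-stressed minus 1 mo acclimated, heat-stressed hearts (right panel, vertical axis) against deacclimated minus 1 mo acclimated hearts (horizontal axes), all in log2 units over 87 rows. The 8 higher rows (red) lie above 0 in both panels except R523 in the right panel, and the 7 lower rows (blue) are spread to both sides of 0.

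Across all 87 rows the difference between deacclimated and 1 mo acclimated hearts correlated at r = 0.327 (Spearman's rho 0.241) with that between reacclimated and 2 d acclimated hearts and at r = 0.435 (rho 0.479) with the stressed pair. By scaled intensity these values were 0.360 (rho 0.400) over 74 rows and 0.006 (rho 0.128) over 82 rows, so the second was not seen in the intensity table. The comparisons share no sample, but their points share the array rows and their signal strength.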

How the data were processed

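Total RNA from rat left ventricles was pooled and given a radioactive label before hybridisation to an array, per the labels' protocols. The deposited log2 values are ratios of the treatment's to the control's geometric mean after normalization, per the labels' design text. The deposited intensity values of the second table are on a linear scale, go below 0 in 5 rows of the deacclimated sample and in 0 rows of the 1 mo acclimated sample, and how they were scaled is not stated by those sources. The same holds for the normalization of the log2 table, any background correction and how the 87 rows were picked.

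Differences were taken per row between log2 ratios, and rows at least 2-fold apart were counted. Rows at least 2-fold from the control were classed by whether their distance to it changed by 0.5 log2 units or more, and as crossed if on opposite sides and at least 0.5 away in both groups. The control was taken as 0, although it was listed away from 0 (by over 1e-04) in 9 rows. No test was possible with 1 value per group. Intensities above 0 were put on the log2 scale and centred per sample on the median of 59 rows. The counting and classing steps were tested on simulated data.

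Rows were named if at least 2-fold apart, at least 2-fold from the control in either group, nearest to the threshold, or with a control value away from 0; others are said to be chosen after their values were seen. The rows and the comparison were chosen with earlier results of these data known. Software was Python 3.11.15 with matplotlib 3.10.9, pandas 2.3.3 and numpy 2.4.6.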

Additional observations from a re-analysis of the deposited data

Results flagged for a closer look

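In 3 of the 15 rows a difference of at least 2-fold ran the opposite way in a pair of groups that the comparison did not use. Of all 87 rows, 18.4% were at least 2-fold higher in reacclimated than in 2 d acclimated hearts and 6.90% lower. In the stressed pair 18.4% were at least 2-fold higher and 4.60% lower. None of the differences between pairs in the 3 rows was tested, and each rests on 1 value per group. Row A061 was lower in deacclimated than in 1 mo acclimated hearts (-1.08) and higher in reacclimated than in 2 d acclimated hearts (2.65), where the 2 d acclimated ratio was -2.97 and the intensity was below 0 in both groups (-645.3 in reacclimated and -1145 in 2 d acclimated hearts). The value -645.3 was listed for 3 rows in reacclimated hearts (849R, A059 and A061) and is thus not specific to A061. Row R332 was lower in deacclimated hearts (-1.50) and higher in reacclimated than in 2 d acclimated hearts (1.29), again with intensities below 0 in both of these groups (-197.5 in reacclimated and -851.5 in 2 d acclimated hearts). Row R523 was higher in deacclimated hearts (1.45) and lower in reacclimated, heat-stressed than in 1 mo acclimated, heat-stressed hearts (-1.03).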

How the results depend on the processing

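With 1 value per group there is no replicate error, so these alternatives show only how far the sizes rest on the table, the scale and the rows used. No paired analysis was possible because each group has 1 value. The 8 higher and 7 lower rows became 15 and 11 by scaled intensity and 27 and 4 by unscaled intensity (added once the data had been seen), 20 and 14 at 1.5-fold and 3 and 2 at 3-fold. Lower rows numbered 1 without the 25% of rows with the lowest intensity, 3 without rows at or below 0 in intensity and 4 without rows whose control value was away from 0, while 7, 8 and 6 were higher. After centring, 7 were higher and 7 lower. The median difference of 0.07 was -0.12 by scaled and 0.32 by unscaled intensity. Rows nearer to the control (4) became 7 with the listed control value subtracted, 1 at a margin of 1, 2 without rows at or below 0 in intensity and 15 by scaled intensity. Rows about as far (11) became 3 at a margin of 0.25 and 20 at a margin of 1, and further rows (12) became 6 at a margin of 1 and 22 by scaled intensity. Crossed rows (2) became 1 with the listed control value subtracted or without rows at or below 0 in intensity. By scaled intensity the sign turned in 18 of the 36 named rows with a value, of which 4 were at least 2-fold apart by ratio, namely R609 (0.32), A061 (0.58), A020 (1.32) and R158 (-0.31). Leaving out the 4 rows that share 1 intensity, also added later, left 8 higher and 7 lower rows by ratio, and 15 and 10 by scaled intensity. After centring, lower rows below 0 in the stressed pair numbered 6 of 7, against 4 before; the other counts of the 15 rows in other pairs stayed within 1.5 times. For these reversals the cause was not tested.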
